A study of Mus musculus with 86 samples.

Results

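The genes described here are those of the cytosolic ribosomal proteins in mouse neuronal cell lines. Protein-coding genes were taken whose symbol is Rpl or Rps followed by a number, together with Rplp0, Rplp1, Rplp2 and Rpsa, and 86 of the 53664 genes in the mouse files met this rule. Of these, 46 encode standard proteins of the large subunit and 31 encode standard proteins of the small subunit. A further 6 are paralogs of large subunit genes and 2 are paralogs of small subunit genes. The remaining member, Rps19bp1, encodes a protein that binds Rps19 and is not itself part of the mature ribosome. The 10 Rps6k kinase genes, 6 protein-coding entries with a pseudogene symbol and 287 pseudogene entries with a member's stem were left out.

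The study measured polyadenylated RNA by sequencing in the soma and in the neurites of mouse lines in which TDP-43, an RNA-binding protein encoded by Tardbp, was removed or replaced. Cells were plated on porous transwell membranes so that cell bodies could be scraped from the top while neurites stayed beneath. CAD cells are a catecholaminergic neuronal line and N2A cells a neuroblastoma line, and both were differentiated by removing serum. The 36 libraries used here fell into 12 groups of 3.

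In the wild-type and knockout groups of both lines, the genotype was TetOff TDP-43. The endogenous Tardbp alleles were inactivated in all of these cells, wild-type included, and an HA-tagged TDP-43 transgene that doxycycline switches off was integrated at a single site. Cells without doxycycline are called wild-type. Cells given 2 µg/mL doxycycline for 48 h, the dose in the labels, are called knockout, and the study's methods give a lower dose for the same step. Doxycycline and loss of TDP-43 cannot be told apart in this design. The lines were grown from single-cell clones, so each line is 1 genetic background. In the other experiment, CAD cells that keep their own Tardbp carried a single-copy, doxycycline-inducible, HA-tagged TDP-43 transgene. It was either WT or carried the ALS-associated Q331K substitution. By the study's methods, doxycycline was given to induce the transgene before fractionation. The study reports that induction lowered the endogenous TDP-43, so that most TDP-43 came from the transgene at a similar total level. Nothing in the sources used here says whether the 3 libraries of a group came from separate cultures, so p-values measure the spread between these libraries, which may be technical.

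The targeted RNA was checked first. Tardbp RNA in CAD soma was 537 ± 28.6 CPM (counts scaled to a common library total, mean ± SD, n = 3) in wild-type and 93.8 ± 4.08 in knockout, and in CAD neurites it was 509 ± 23.4 and 138 ± 11.02. In N2A soma it was 579 ± 29.2 and 169 ± 9.33, and in N2A neurites 683 ± 15.8 and 257 ± 12.3. Tardbp RNA was lower in knockout in every compartment. In the transgene experiment soma held 770 ± 48.9 with the WT transgene and 758 ± 42.9 with Q331K. The libraries held 25009904 to 32895542 estimated counts in the CAD experiment, 22726534 to 31911030 in the N2A experiment and 9783050 to 15870647 in the transgene experiment. Of 8 neuronal markers, 7 were at 1 TPM or more (TPM is the level per length, scaled to the same total in each library) in every group, and Rbfox3 was the exception. Astrocyte markers summed to at most 2.36 TPM, microglia or macrophage markers to at most 2.80 TPM and oligodendrocyte markers to at most 10.9 TPM. Fibroblast markers summed to at most 2.52 TPM in the wild-type and knockout groups. In the transgene groups they summed to between 8.46 and 24.4 TPM. Of the genes that define catecholamine synthesis, Dbh was at 15.3 TPM, Th at 2.44 and Ddc at 0.89 in wild-type CAD soma, so the catecholaminergic label of this line rested on low levels of these genes.

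The cytosolic ribosome is made of a large subunit, which forms peptide bonds, and a small subunit, which decodes the mRNA. Its proteins are encoded by short, abundant mRNAs, and most of these begin with a 5′ terminal oligopyrimidine (TOP) tract, a cytosine at the first transcribed base followed by a run of pyrimidines, through which mTOR signalling and LARP1 control their translation. In neurons ribosomal protein mRNAs are among those known to travel into axons and dendrites, where locally made proteins can join existing ribosomes. Mammalian genomes also carry many processed copies of these genes, which were made by reverse transcription of the mRNAs and resemble them closely.

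The bases around annotated start sites show what a TOP tract looks like and how often the annotation places one exactly at the start. The windows below were read from RefSeq on GRCm38.p6, each holding 15 bases before the start site and 15 from it onward, with the tract in capitals. Rpl15, Rpl35, Rps6 and Rps18 have a tract at the annotated start, and Rpl7l1 and Rps19bp1 do not.
Rpl15, chr14:18270972-18271001, minus strand: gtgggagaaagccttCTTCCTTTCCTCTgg
Rpl35, chr2:39005117-39005146, minus strand: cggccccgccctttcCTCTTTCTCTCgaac
Rps6, chr4:86857353-86857382, minus strand: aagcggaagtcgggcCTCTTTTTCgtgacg
Rps18, chr17:33955651-33955680, minus strand: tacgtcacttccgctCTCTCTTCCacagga
Rpl7l1, chr17:46782642-46782671, minus strand: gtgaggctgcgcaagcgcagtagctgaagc
Rps19bp1, chr15:80264292-80264321, minus strand: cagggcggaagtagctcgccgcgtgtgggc

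A tract was counted where the transcribed strand had C at the start site and at least 4 more bases of C or T after it. Of the 66 members with an entry in the promoter table, 14 (21.2%) had one, against 813 of all 27025 entries (3.01%). Within 10 bases of the start, 60.6% of the members and 34.4% of all entries held such a run. A match is a description of these letters in these windows.

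Near-identical copies set how well single members could be measured, since a read that fits a gene and its copy equally well has to be divided between them. A copy was defined as an entry of at least 95% identity over at least 70% of the member's coding sequence. By this definition 79 of the 86 members had a copy, and there were 550 copies outside the members. In 53 members under 10% of the reads of gene and copies fell on the copies in every group. In 19 members over 50% did so in at least 1 group. The stretches below are from the coding sequences of 3 members whose values depended strongly on this, each beside its copy, with a differing base in capitals.
Rps27 (chr3:90212522-90213651, minus strand), coding bases 1 to 30: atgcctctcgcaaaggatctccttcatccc
Rps27rt (chr9:114982366-114982739, minus strand), coding bases 1 to 30: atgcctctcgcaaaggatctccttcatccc
Rps18 (chr17:33951999-33956001, minus strand), coding bases 171 to 200: agaactcacggaggaTgaggtggagcgagt
Gm10260 (chr13:97760072-97760632, minus strand), coding bases 171 to 200: agaactcacggaggaCgaggtggagcgagt
Rpl5 (chr5:107900502-107909005, plus strand), coding bases 1 to 30: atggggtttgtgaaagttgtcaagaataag
Gm15500 (chr7:114705217-114706235, minus strand), coding bases 1 to 30: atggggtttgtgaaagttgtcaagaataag
Rps27 and Rps27rt, both members, had 0 differences over 255 coding bases. Rps18 and Gm10260 differed at 4 of 459 coding bases, and Rpl5 and Gm15500 at 0 of 894. Values for these members are therefore given alone and with their copies summed.

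Levels per length differed widely between members. Over the 77 standard genes, the mean TPM in wild-type CAD soma ran from 48.6 to 3197, with a median of 904, and the 90th percentile was 10.2 times the 10th. In wild-type N2A soma the range was 23.4 to 2449, the median 890 and the same ratio 13.9. Large and small subunit genes had medians of 860 and 1041 TPM in CAD soma and of 874 and 1008 in N2A soma.

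Rpl41, which encodes a very short large subunit protein, led the order in both lines. Its level in wild-type soma was 2677, 3112 and 3802 TPM in the CAD libraries and 2296, 2209 and 2841 TPM in the N2A libraries. Among the next highest in CAD soma were Rps21 at a mean of 2198 TPM, Rpl23a at 2061 and Rps27a, which encodes a ubiquitin fusion, at 1955. In N2A soma it was followed by Rpl13 at 2320, Rps29 at 2084, Rps24 at 2010 and Rps27a at 2006. The libraries of these neighbours overlapped, so their order within either line was not resolved. At the other end, Rpl10l, a retrogene expressed in testis, was listed at 0 counts in all 36 libraries, and Rpl3l, the paralog of striated muscle, at 0.05 TPM in CAD soma and 0.40 in N2A soma. Above these, Rps19bp1 stood at 31.0 TPM and Rpl7l1 at 39.1 TPM in CAD soma, and in N2A soma Rpl29 at 23.4, Rpl7l1 at 27.1 and Rpl39l at 37.3 TPM. Of the reads of Rpl29 and its copies in wild-type N2A soma, 90.7% fell on the copies. The TPM levels given here are those of each gene's own entry, without its copies.

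**Figure D1:**
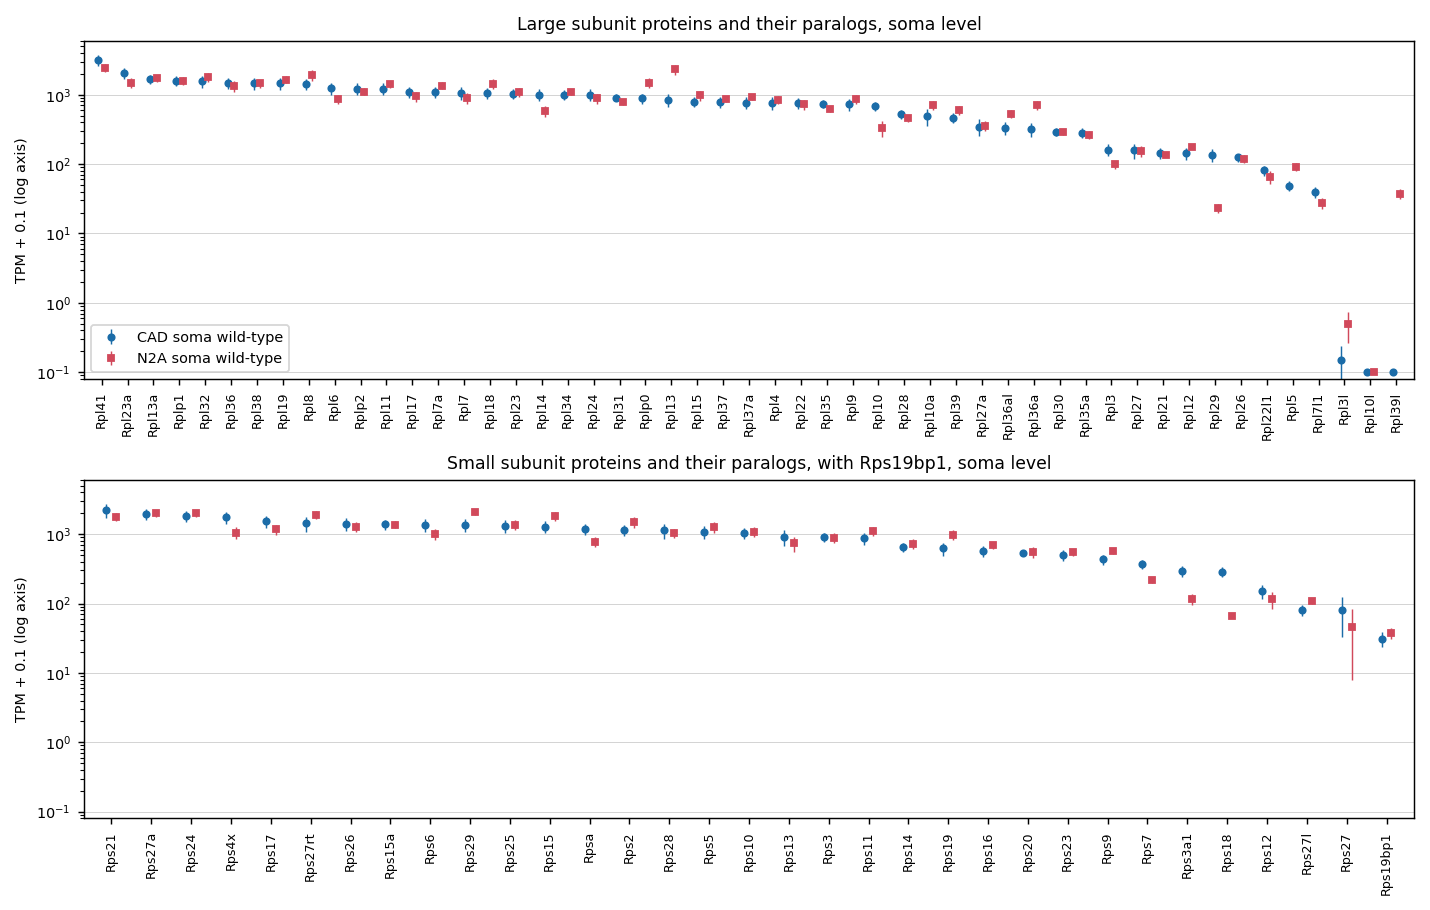
Mean TPM + 0.1 on a log axis of the members shown in wild-type soma of CAD (blue circles) and N2A cells (red squares), with bars of 1 SD over 3 libraries, ordered by the CAD level within each panel. Most members lie between 100 and 3197 TPM in both lines, Rpl3l and Rpl10l sit at the bottom in both, and Rpl39l is near 0 in CAD and at 37.3 TPM in N2A.

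The order of the levels was alike in the lines, with a Spearman coefficient of 0.89 between CAD and N2A soma over the 77 standard genes, which share the annotation and its lengths. Paralogs fell into those that were nearly silent and those at a fraction of their standard counterpart. Rpl22l1 was at 68.2, 80.2 and 94.2 TPM in the CAD soma libraries, where Rpl22 was at 598, 811 and 846. Rpl7l1, related to a factor of large subunit assembly, was at 30.9, 41.5 and 44.7 TPM where Rpl7 was at 812, 1106 and 1274. Rpl36al was the exception, at 250, 366 and 374 TPM beside 252, 318 and 398 for Rpl36a, and these ranges overlapped. Rps27l, a p53-responsive paralog, was at 66.8, 79.5 and 94.4 TPM. Rps27rt was listed at 1158, 1326 and 1816 TPM and Rps27 at 68.1, 131 and 39.8, but as their coding sequences are the same the division between them is that of the quantifier.

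Neurite enrichment was measured as the Localization Ratio (LR), the log2 of the level in neurites over the level in soma, from counts scaled between libraries by TMM. Nearly all members were neurite-enriched in every experiment. Summed over the members, wild-type CAD soma held 24194 ± 1396 CPM and CAD neurites 71022 ± 1726. In N2A the sums were 24384 ± 1401 and 65484 ± 4899, and with the WT transgene 33205 ± 2282 and 112539 ± 19204. Neurite and soma libraries did not overlap in any experiment. In wild-type CAD, 82 of the 83 members tested had an LR above 0 at an FDR of 0.01, against 23.7% of all genes tested, and none had one below 0, against 17.7%. In wild-type N2A, 83 of 84 were above (32.5% of all genes) and Rps18 below (26.6%). With the WT transgene, 80 of 83 were above (14.9%) and 0 below (12.6%). The groups without TDP-43 and with Q331K gave like counts. In knockout CAD 82 members were above (24.6%) and 0 below (19%), in knockout N2A 82 (25.3%) and 0 (13.1%), and with Q331K 81 (16.7%) and 0 (14.5%). The fitted LR of the members ran from 0.33 to 1.92 in CAD, with quartiles at 1.34 and 1.69. The members that were not tested did not pass the filter on low counts, Rpl3l and Rpl10l everywhere and Rpl39l in CAD.

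Rplp1, a protein of the ribosomal stalk that recruits elongation factors, was among the most enriched in each experiment. In wild-type CAD it was at 246, 215 and 265 CPM in soma and at 896, 860 and 937 CPM in neurites, an LR of 1.89 ± 0.09 (SE). In wild-type N2A its LR was 1.84 ± 0.10, from 249, 214 and 267 CPM in soma and 927, 862 and 818 CPM in neurites. Neurite values were more than 3 times those of soma in every pairing of these libraries. The other members with the highest LR in CAD were Rps21 at 1.92 ± 0.09, Rpl32 at 1.91 ± 0.08, Rpl35 at 1.88 ± 0.10 and Rpl23a, at the exit of the peptide tunnel, at 1.86 ± 0.09. In N2A they were Rpl39l at 1.96 ± 0.11, Rpl23a at 1.77 ± 0.11 and Rpl35 at 1.76 ± 0.12. Rps27 was listed at 1.74 ± 0.44 in N2A, but its replicate numbers gave 2.70, 1.91 and 0.09, 96.9% of its soma reads lay on copies and its LR was 1.27 with these summed. With the WT transgene they were Rpl23a and Rpl35 at 2.08 ± 0.13, Rpl23 at 2.07 ± 0.13, Rpl32 at 2.06 ± 0.13 and Rps20 at 2.02 ± 0.14. These neighbours lay within 1 or 2 SE of each other. Rpl23a and Rpl35 were among the first 5 in all 3 experiments.

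**Figure D2:**
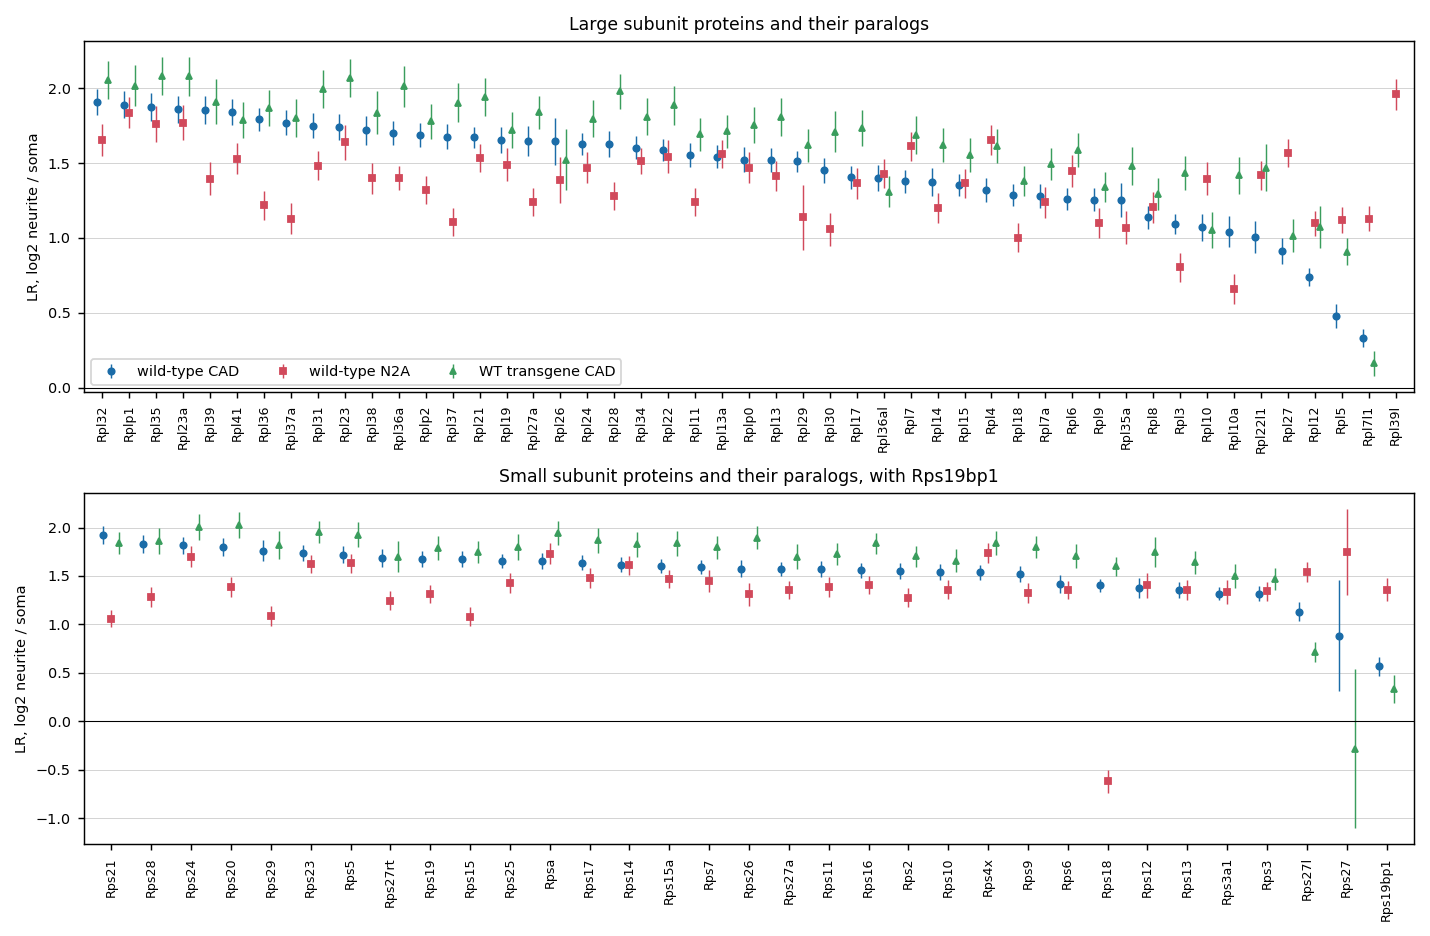
LR (log2 neurite over soma) of the tested members shown in wild-type CAD (blue circles), wild-type N2A (red squares) and CAD with the WT transgene (green triangles), with bars of 1 SE from the fit, ordered by the CAD value. Most members lie between 1 and 2, Rpl7l1, Rps19bp1 and Rpl5 are low in the CAD experiments, and Rps18 is below 0 in N2A alone.

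The low outliers fell into those with few or no copies and those with many. Rpl7l1 (chr17:46773907-46782672) was at 65.6, 66.0 and 68.0 CPM in wild-type CAD soma and at 83.3, 82.0 and 85.6 CPM in CAD neurites. Its LR was 0.33 ± 0.06 in CAD and 0.16 ± 0.08 with the WT transgene, the latter not past the threshold at an adjusted p of 0.14. Rps19bp1 (chr15:80260615-80264315) had an LR of 0.57 ± 0.10 in CAD and 0.33 ± 0.14 with the WT transgene (adjusted p = 0.079). Rps27l had 1.13 ± 0.10 in CAD and 0.72 ± 0.10 with the WT transgene. Rps19bp1 and Rps27l had no copy by the definition used, and the 1 copy of Rpl7l1 held at most 0.038% of reads. Summing copies could therefore not move these values, and it is no check on them. In N2A these genes were within 3 scaled median absolute deviations of the members' median, the distance used to call an outlier, with an LR of 1.13 ± 0.08 for Rpl7l1, 1.36 ± 0.12 for Rps19bp1 and 1.54 ± 0.10 for Rps27l.

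Several other low values went with reads on copies. Rpl5, which carries 5S rRNA into the large subunit, had an LR of 0.48 ± 0.08 in CAD alone and of 1.37 with its copies, which held 95.2% of the reads in soma. Rpl12, a protein of the stalk base, moved from 0.74 ± 0.06 to 1.84 in CAD. Its LR was also higher over coding transcripts alone, as given below. Rps18 in N2A was at 17.9, 18.1 and 15.1 CPM in soma and at 9.23, 12.5 and 11.5 CPM in neurites, and its LR of -0.62 ± 0.12 became 1.23 with copies, which held 96.6% of the soma reads. Rps27 had an LR of -0.28 ± 0.82 with the WT transgene and -1.89 ± 0.89 with Q331K, and 1.63 and 1.66 once merged with Rps27rt and the other copies. Rps27 was also the member that did not pass the test in wild-type CAD, at 0.88 ± 0.57. Rpl10 and Rpl27 with the WT transgene moved from 1.05 and 1.015 to 1.67 and 1.71. In N2A the lowest values included 0.66 for Rpl10a, which became 0.88 with copies, and 0.80 for Rpl3, which became 1.32. Rpl18 in N2A, at 1.0002, had 0.0332% of its soma reads on copies and moved by under 0.01 with them. With copies summed, the median over members was 1.59 in CAD, 1.41 in N2A and 1.79 with the WT transgene.

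**Figure D3:**
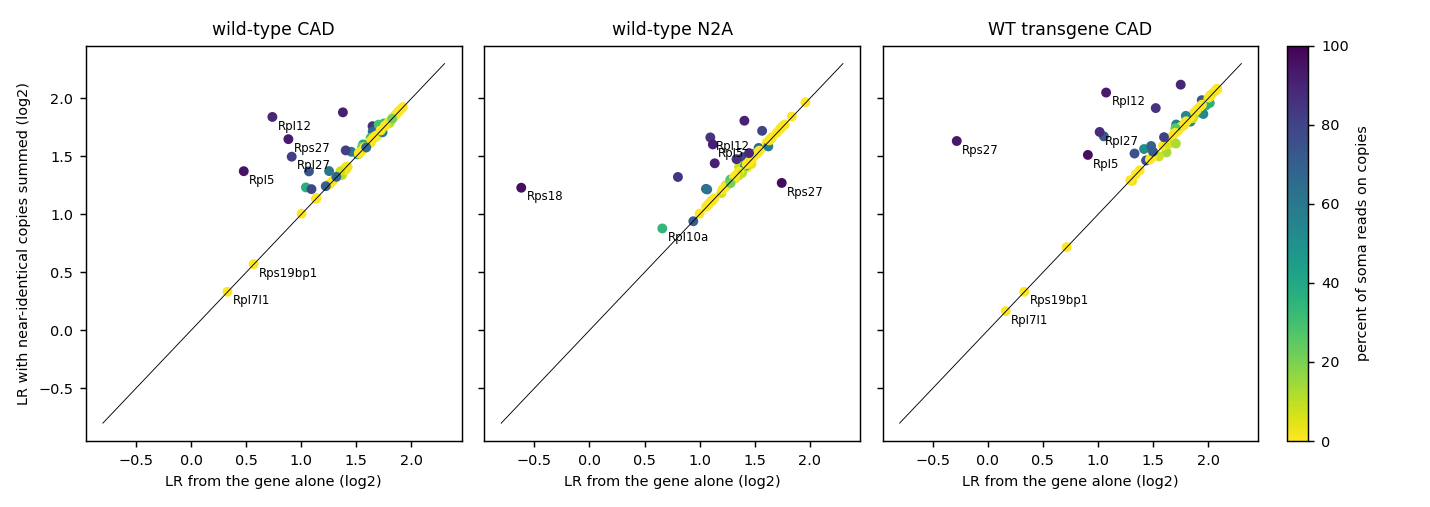
LR of each member from its own entry (horizontal) against the LR with near-identical copies summed (vertical), in log2, for wild-type CAD, wild-type N2A and CAD with the WT transgene, with colour giving the percent of soma reads on copies. Points with few reads on copies lie on the diagonal, and Rpl5, Rpl12, Rps18 and Rps27 leave it.

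Transcripts of these genes that are annotated as non-coding took part of the members' reads, and in wild-type CAD and N2A a larger part in soma. Their share of the members' counts was 7.24% ± 0.36 in wild-type CAD soma and 5.66% ± 0.55 in CAD neurites, and 7.73% ± 0.56 and 5.68% ± 0.37 in wild-type N2A. The libraries of these groups did not overlap between compartments. With the WT transgene the shares, 7.93% ± 0.67 in soma and 7.37% ± 0.67 in neurites, did overlap. Rpl10a, a large subunit protein, had 50.1% of its soma counts and 22.5% of its neurite counts on such transcripts in wild-type CAD. In wild-type N2A the shares were 56.6% and 34.7%. The LR of Rpl10a from scaled counts was 1.04 in CAD and 0.66 in N2A over all transcripts, and 1.68 and 1.25 over coding transcripts alone. Rpl12 had 92.2% of its soma counts and 83.8% of its neurite counts on such non-coding transcripts in wild-type CAD. Its LR there went from 0.73 to 1.71 over coding transcripts alone. Rpl3 had 98.5% of its soma counts and 31.6% of its neurite counts on such transcripts in wild-type N2A, against 26.5% and 8.17% in CAD. Its LR in N2A went from 0.80 to 6.28 over coding transcripts alone, a value that rests on the few soma counts left, and in CAD from 1.09 to 1.41. Rps18 had 93.8% of its soma counts and 69.2% of its neurite counts on such transcripts in wild-type N2A. Its LR there over coding transcripts alone was 1.37, which also rests on the few soma counts left.

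Large and small subunit genes were enriched to nearly the same degree. Their fitted median LR was 1.57 and 1.58 in wild-type CAD, 1.40 and 1.36 in wild-type N2A, and 1.75 and 1.80 with the WT transgene. Taken separately for the libraries of each replicate number, the large subunit median minus the small subunit median was -0.029 ± 0.017 in CAD, 0.022 ± 0.011 in N2A and -0.042 ± 0.037 with the WT transgene (SD, n = 3). It was -0.042 ± 0.035 in knockout CAD, -0.032 ± 0.0076 in knockout N2A and -0.102 ± 0.0048 with Q331K. Wild-type N2A was the only group of the 6 with a mean above 0. Whole replicate numbers moved much more than the subunits did, with the median over all members running from 1.46 to 1.72 in wild-type CAD, from 1.13 to 1.501 in wild-type N2A and from 1.44 to 2.14 with the WT transgene.

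**Figure D4:**
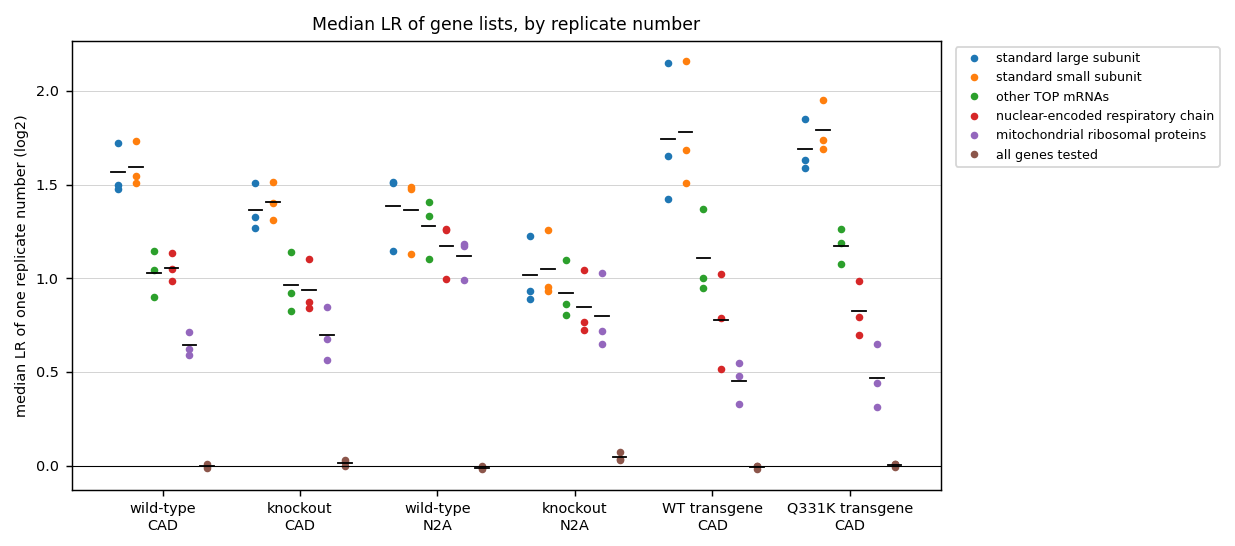
Median LR of 6 gene lists for each replicate number (points) and the mean of the 3 (bars) in the 6 genotypes. Both subunits lie together and above the other lists in the CAD experiments, all genes tested lie near 0, and knockout N2A lies lowest for both subunits, at 1.02 and 1.05.

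Other lists of the same machinery were also enriched, mostly to a lesser degree. All 16 other TOP mRNAs, among them translation factors, passed as well, with medians of 1.02 in CAD, 1.25 in N2A and 1.09 with the WT transgene. Tpt1 had the highest value of these, 1.74 in CAD and 2.02 in N2A, and Eif4b the lowest, 0.30 and 0.72. Nuclear genes of the respiratory chain were past the threshold and higher in neurites in 91 of 96 cases in CAD and 95 of 96 in N2A, with medians of 1.10 and 1.21. Mitochondrial ribosomal proteins passed in 76 of 78 and 77 of 78 cases, with medians of 0.67 and 1.12. Ribosome assembly factors had medians of 0.32 and 0.81, and the regulators of TOP mRNAs -0.25 and -0.45, with Mtor at -0.65 in CAD and Larp1 at -0.62. Over all genes tested the median was -0.02 in CAD and -0.03 in N2A.

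Short mRNAs were enriched outside the members too. The Spearman coefficient between LR and effective length over all genes tested was -0.36 in CAD, -0.25 in N2A and -0.44 with the WT transgene. Genes outside the members that were under 1000 bases and over 100 CPM had a median LR of 1.11 in CAD, 1.30 in N2A and 0.97 with the WT transgene, while the members had a median effective length of 483 bases in CAD. The part of length in the members' enrichment was not tested. The 13 standard genes with a TOP tract at the annotated start had a median LR of 1.54 in CAD and 1.35 in N2A. The 44 without one there had 1.57 and 1.40. Within 10 bases of the start 34 of these 57 genes held such a run. The split by the exact annotated start therefore cannot part genes with a TOP tract from genes without one.

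The scale of the level also mattered. On TPM the members' median LR was -0.17 in CAD, -0.23 in N2A and 0.77 with the WT transgene, while the median over all genes fell to -1.58, -1.51 and -0.97. The members stood 1.41, 1.28 and 1.74 above that median. In the CAD and N2A experiments 4 short entries annotated as miRNAs took up to 64.2% and 70.9% of TPM in wild-type neurites, against at most 0.058% in the transgene experiment. Statements on LR here are relative to the bulk of genes in the same library.

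The comparison of knockout with wild-type asks whether the members depend on TDP-43. On CPM, knockout soma held more of the members' RNA in both lines, and whether the soma change differed between the lines was not tested. In wild-type and knockout N2A soma the summed members were at 24384 ± 1401 and 31790 ± 2313 CPM, and in CAD soma at 24194 ± 1396 and 27239 ± 979. In neurites the sums were 65484 ± 4899 and 66105 ± 4618 CPM in N2A and 71022 ± 1726 and 70771 ± 4688 in CAD. Sums in knockout soma lay above all those of wild-type soma in both lines, while those of neurites overlapped. On TPM the members' share of soma was 7.53% ± 1.39 in wild-type and 7.50% ± 1.24 in knockout CAD, and 7.68% ± 1.07 and 9.16% ± 0.37 in N2A, with overlapping libraries in both lines. The short miRNA entries described above also took a varying part of soma TPM. It was 10.1% to 38.4% in wild-type and 16.2% to 37.5% in knockout CAD soma. In N2A soma it was 5.77% to 21.9% in wild-type and 6.71% to 11.8% in knockout. Their effect on the members' TPM shares was not tested. In bulk samples fewer cells of a type and less RNA per cell cannot be told apart.

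In N2A soma, 37 of the 84 members tested rose in knockout, against 10.9% of all genes tested, and 0 fell, against 5.15%. Of the standard genes, 16 of 46 in the large and 17 of 31 in the small subunit rose, with median changes of 0.35 and 0.40 on the log2 scale. The median change over the members was 0.36, and it was 0.39 above the median of all genes both with TMM and with upper-quartile scaling. Knockout libraries lay above all wild-type libraries for 71 of 84 members (23.3% of all genes) and below for 1 (18.8%). Without the libraries numbered 2, 0 members passed with edgeR, and 22 passed without those numbered 3. DESeq2 called 66 members higher (15.7% of all genes it tested).

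Rpl28 (chr7:4792874-4795066), of the large subunit, had the largest rise in N2A soma. Its level was 199, 206 and 223 CPM in wild-type and 302, 357 and 326 CPM in knockout soma, a log2 change of 0.65 ± 0.09 (edgeR quasi-likelihood test, adjusted p = 0.00013). Rps25, which some viral and cellular mRNAs need for initiation at internal sites, was at 309, 302 and 329 CPM in wild-type and 452, 533 and 458 CPM in knockout, a change of 0.62 ± 0.11 (adjusted p = 0.00058). The groups did not overlap for either gene. Rpl31, Rpl32 and Rpl35 rose by 0.59, and Rpl4, Rpl22 and Rpl39l by 0.57. Rps14 rose by 0.56 ± 0.10, from 231, 216 and 255 CPM to 335, 367 and 333 CPM.

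In CAD soma 3 members rose in knockout (11.2% of all genes did) and 0 fell (11.6%), with a median change of 0.16 over 83 members. With the replicate number as a block, 7 members rose. Without the libraries numbered 2, 0 rose and the median change was 0.094. Rps14, of the small subunit platform, had the largest change, from 226, 201 and 218 CPM in wild-type to 285, 320 and 306 CPM in knockout soma, 0.50 ± 0.08 (adjusted p = 8.4e-05). Rps2, at the mRNA entry, rose by 0.30 ± 0.08 (adjusted p = 0.0063) and Rpl3, next to the peptidyl transferase centre, by 0.28 ± 0.06 (adjusted p = 0.0033). Knockout and wild-type libraries did not overlap for 44 of 83 members, all higher, against 21.5% of all genes higher and 22.5% lower. DESeq2 called 24 members higher (13.3% of all genes it tested).

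In neurites few members changed. In CAD 4 rose (11.8% of all genes) and 0 fell (13.5%), and none passed without the libraries numbered 1 or without those numbered 2. Rpl22l1, the paralog of Rpl22, was at 33.3, 36.5 and 33.9 CPM in wild-type and 53.8, 44.1 and 38.0 CPM in knockout neurites, a change of 0.39 ± 0.10 (adjusted p = 0.0077), and the groups did not overlap. Rps14 rose there too, by 0.33 ± 0.07, from 652, 676 and 645 CPM to 877, 850 and 761 CPM. Rpl7l1 rose by 0.22 ± 0.06. Rpl12 rose by 0.28 ± 0.06 alone, but with its copies the value was -0.12. In N2A 0 rose (6.48%) and Rpl5 fell (5.1%), from 139, 146 and 136 CPM to 110, 118 and 101 CPM, -0.36 ± 0.09 (adjusted p = 0.0094). With its copies the change of Rpl5 was -0.06 (adjusted p = 0.72), and leaving out any replicate number ended its call. Neurite libraries of the genotypes did not overlap for 10 members higher (22.6% of all genes) and 5 lower (23.9%) in CAD, and for 5 higher (17.4%) and 3 lower (20.2%) in N2A.

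**Figure D5:**
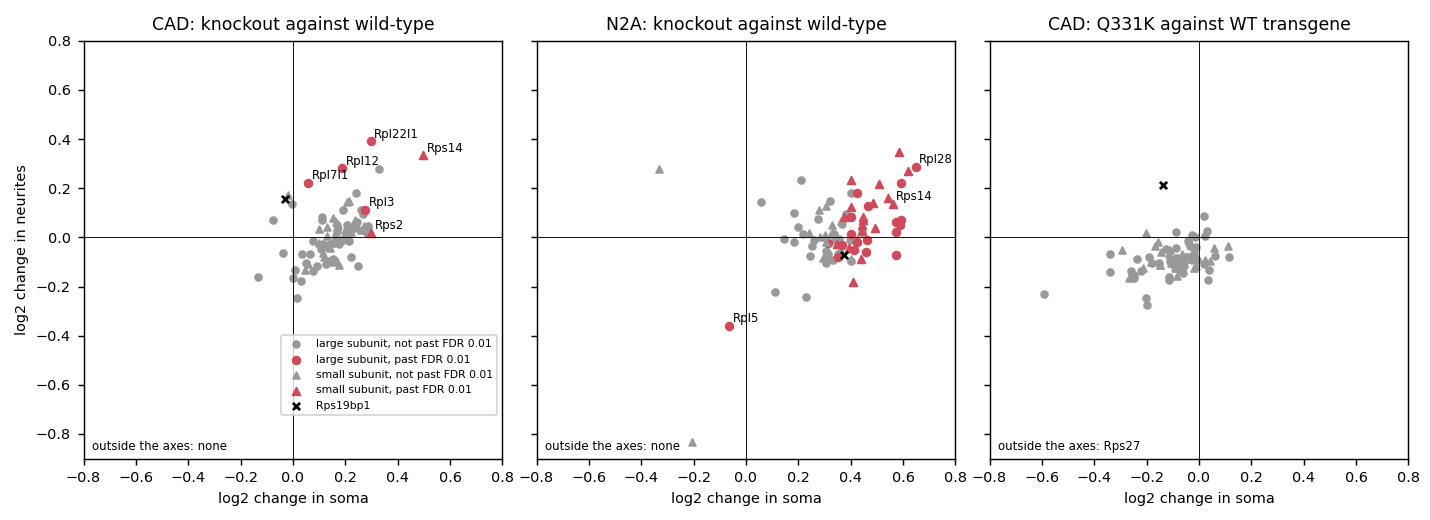
Log2 change of each member in soma (horizontal) against neurites (vertical), for knockout against wild-type in CAD and N2A and for Q331K against the WT transgene in CAD, with circles for the large and triangles for the small subunit. Members past an FDR of 0.01 in either compartment are red, 81 of the 84 N2A members lie to the right of 0 in soma with neurite changes on both sides of 0, and Rps27 is outside the axes of the last panel.

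No member passed the test of a change of LR between genotypes in either line, although most values were below 0. In N2A the median LR over members was 1.37 ± 0.20 in wild-type and 1.03 ± 0.18 in knockout (SD, n = 3), and the fitted median change was -0.36, against -0.01 over all genes tested. It was below 0 in 81 of 84 members. None passed an FDR of 0.01, when 0.0893% of all genes rose and 0.0112% fell, while 55 members had an unadjusted p under 0.05 (31.2% of all genes) and DESeq2 called 34 lower (9.38%). The members nearest to the threshold were Rpl39l at -0.64 ± 0.15 (adjusted p = 0.032), Rps27l at -0.59 ± 0.14 (0.034) and Rpl4 at -0.55 (0.036). In CAD the median was 1.57 ± 0.14 in wild-type and 1.38 ± 0.11 in knockout, and the fitted median change was -0.16, which ran from -0.25 without the libraries numbered 1 to -0.086 without those numbered 2. None passed (0.225% of all genes rose and 0.208% fell), 10 members had an unadjusted p under 0.05 (10.5% of all genes), and DESeq2 called 1 lower (1.25%). The largest value in CAD was that of Rplp2, a stalk protein, at -0.36 (adjusted p = 0.19). The LR of the replicate numbers did not overlap between genotypes, knockout lower, for 23 of 83 members in CAD (9.19% of all genes) and 25 of 84 in N2A (19.6%). With knockout higher, the numbers were 2 in CAD (6.78%) and 1 in N2A (15.3%). The difference of the change between lines was tested and 0 members passed (0.102% of all genes in each direction), with 9 at an unadjusted p under 0.05 (18.5% of all genes) and 1 higher by DESeq2 (1.3%).

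Genes of other lists rose in N2A soma beside the members, where 10.9% of all genes rose and 5.15% fell. Of the 16 other TOP mRNAs 12 rose, with a median of 0.45, led by Tpt1 at 0.62 and Eif3f at 0.59. Of 96 respiratory chain genes 36 rose and 2 fell, with a median of 0.32, and of 78 mitochondrial ribosomal proteins 16 rose, with a median of 0.28. Of 16 ribosome assembly factors 7 rose, among them Nhp2 at 0.63 and Fbl, the rRNA methyltransferase, at 0.59. Of 10 regulators of TOP mRNAs 1 rose, Tsc2 at 0.66, and Mtor was at -0.01 and Larp1 at 0.05. In CAD soma, where 11.2% of all genes rose, the other TOP mRNAs had 1 riser, Npm1 at 0.56, and a median of 0.10.

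RNAs known to stay in the nucleus were measured beside them, as a mark of how much nuclear RNA the soma fraction held. In knockout N2A soma Neat1 was at -1.501 (edgeR, adjusted p = 0.026), Kcnq1ot1 at -1.13 (0.032) and Malat1 at -0.62 (0.37). Meg3 was at 0.32 (0.54) there and the fifth RNA of the list at -0.48 (0.037). In knockout CAD soma Neat1 was at -0.56, Kcnq1ot1 at 0.05, Malat1 at 0.53, Meg3 at 0.95 and the fifth RNA at 0.34. None passed an FDR of 0.01 in either line. The summed level of the 5 RNAs of that list was 494 TPM in wild-type and 314 in knockout N2A soma, and 419 and 516 in CAD soma. The share of non-coding transcripts among the members' counts was 7.73% ± 0.56 and 6.49% ± 0.47 in wild-type and knockout N2A soma. Their part in the higher level of the members was not tested.

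With Q331K no member passed a test against the WT transgene. In soma edgeR called 0 members and 0% of all genes tested in either direction, and 4 members had an unadjusted p under 0.05 (7.14% of all genes). In neurites it called 0 members (0% of all genes), with 1 member at an unadjusted p under 0.05 (9.84%). For the change of LR it called 0 members (0% of all genes), with 0 at an unadjusted p under 0.05 (4.34%). DESeq2 called 0 members in each of these tests, against 0% of all genes in soma and for LR and 0.083% in neurites. Libraries did not overlap for 1 member higher (7.3% of all genes) and 1 lower (6.79%) in soma and for 0 in neurites (6.99% and 6.83%). The LR did not overlap for 1 member higher (5.42%) and 0 lower (5.95%). The median change over members was -0.08 in soma, -0.09 in neurites and -0.02 for LR. Without the libraries numbered 2 it was -0.087 in soma, 0.12 in neurites and 0.20 for LR, and without those numbered 1 or 3 the LR median was -0.13 or -0.096, so its direction turned on these libraries. The medians of the replicate numbers ran from 1.44 to 2.14 with the WT transgene and from 1.61 to 1.88 with Q331K and so overlapped. Rps14, which rose in knockout, was at 258, 275 and 314 CPM in soma with the WT transgene and at 301, 294 and 286 CPM with Q331K. Neurite library 2 of the WT transgene stood apart, with 134613 CPM on the members against 99682 in the lowest library of its group. The transgene libraries held fewer counts than the others.

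Between the lines, single members differed far more than the group. In wild-type soma 8 of 84 members were higher in N2A than in CAD (21.2% of all genes tested) and 31 lower (30%), with a median of -0.17. With upper-quartile scaling the split was 23 higher and 19 lower, and with a minimum of 10 counts in every library 21 and 23, so the direction for the group as a whole depended on the scaling and the filter, and without the libraries numbered 2 the calls numbered 24. The lines were separate experiments, and line and experiment cannot be told apart.

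Rpl39l (chr16:10170226-10174911), a paralog of Rpl39 known from the testis, was the sharpest difference. It had 0 counts in the 3 wild-type CAD soma libraries and 278, 259 and 357 counts in those of N2A, at least 337-fold higher against a floor of 3 counts over the group. In neurites the counts were 0, 0 and 1 in CAD and 1075, 1124 and 1081 in N2A. Its LR in N2A was above that of Rpl39, which was 1.40 ± 0.11, and its knockout soma held 378, 501 and 549 counts. In the transgene experiment it had at most 1 count in any library.

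Rpl13, a large subunit protein, was at 268, 262 and 316 CPM in wild-type CAD soma and at 662, 625 and 751 CPM in N2A soma, with both lines scaled together, a log2 difference of 1.27 ± 0.10 that did not move with copies. In neurites it was at 782, 851 and 860 CPM in CAD and 1928, 1881 and 1769 CPM in N2A on that scale. The lines did not overlap in either compartment, and the LR of Rpl13 was 1.52 ± 0.08 in CAD and 1.41 ± 0.10 in N2A. Rpl36a was higher in N2A by 0.96 ± 0.08, Rplp0 by 0.52 ± 0.10, Rpl36al by 0.48 ± 0.10, Rps29 by 0.46 ± 0.11 and Rps19 by 0.44 ± 0.09. Rpl5 was at 0.70 ± 0.09 alone and at -0.09 with copies.

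Of the members lower in N2A soma, those with the largest values depended on copies. Rpl29 was at -2.73 ± 0.17 and Rps18 at -2.49 ± 0.10 alone, and at -0.35 and -0.01 with copies. Rps7 was at -1.82 ± 0.10 and Rps3a1 at -1.58 ± 0.11, and at -0.25 and -0.19 with copies. Rpl10 stayed at -1.004 with copies, from -1.28 ± 0.12. Rpl14 at -1.02 ± 0.10, the X-linked Rps4x at -0.96 ± 0.09, Rpsa, the laminin receptor of the small subunit, at -0.83 ± 0.10 and Rpl6 at -0.76 ± 0.09 moved by under 0.01 with copies, and Rpl3 went from -0.86 ± 0.09 to -0.42.

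The LR itself also differed between the lines for some members. It was higher in N2A for 4 of 84 (13.6% of all genes) and lower for 8 (4.82%), and 4 and 31 with upper-quartile scaling. Without the libraries numbered 2 only 1 member passed. Rps21, a small protein of the small subunit, was at 249, 205 and 259 CPM in CAD soma and 892, 881 and 931 CPM in CAD neurites. In N2A it was at 206, 184 and 211 CPM in soma and 433, 418 and 401 CPM in neurites, so that its LR in N2A minus that in CAD was -0.86 ± 0.13 (edgeR, adjusted p = 4.4e-05). For Rps29, Rpl37a, Rps15, Rpl36, Rpl37 and Rps28 this difference ran from -0.67 to -0.54. Rpl7l1 and Rps19bp1, which had low LR in CAD, were higher in N2A by 0.80 ± 0.11 and 0.79 ± 0.17. Rps18, Rpl5 and Rpl27 no longer passed once copies were summed. Over the 77 standard genes the Spearman coefficient of LR was 0.36 between CAD and N2A, 0.87 between CAD and the WT transgene experiment in CAD, and 0.49 between N2A and that experiment. The 25 shortest standard genes, of 345 to 584 bases, had a median difference of LR of -0.27 between N2A and CAD, and the other 52 a median of -0.12.

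TDP-43 binds runs of UG, so the 3′ UTRs of the members were searched for GTGTG and TGTGT in DNA letters on the transcribed strand, overlapping matches counted. Of 84 members with a 3′ UTR, 32 (38.1%) held a match, against 80.1% of 12732 protein-coding genes. The members' 3′ UTRs were short, with a median of 67 bases against 1028, and matches per kilobase were 5.52 and 5.75. Among other protein-coding genes with a 3′ UTR between the members' 5th and 95th percentile of length, whose median was still longer at 428 bases, 62.7% held a match, at 5.08 per kilobase. The study's motif set also holds GUAUG, which was not searched for here, so these shares count a narrower set. A match is a description of sequence and not a binding site.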

How the data were processed

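PolyA RNA of soma and neurite fractions was sequenced in 36 mouse libraries, 12 groups of 3. Per the labels and methods, the authors trimmed reads with cutadapt and quantified transcripts with Salmon, and their notes name the builds mm10 and hg38. The deposited values were estimated counts and TPM per transcript. Tool versions are not given in the sources used here. Here transcripts were summed to genes with GENCODE vM21 (GRCm38), estimated counts were rounded, and CPM were scaled by TMM.

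Tests used edgeR 4.0.16 (quasi-likelihood, filterByExpr) in R 4.3.3, fitted on all genes over the 12 libraries of an experiment, or the 24 of CAD and N2A between lines, with Benjamini-Hochberg adjustment and an FDR of 0.01. LR per replicate number used log2 of CPM plus 0.5, and TPM values log2 of TPM plus 0.1. SE was taken from the fold change and its F statistic. Copies were found with blastn 2.17.0. The tests were checked on simulated data. Alternatives were DESeq2 1.42.0, upper-quartile scaling, TMM without the members and mitochondrial genes, standard proteins alone, no filter, a minimum of 10 counts, length-scaled counts, an FDR of 0.05, TPM, a replicate block and leaving out each replicate number. Copies summed, TPM less the all-gene median, and coding transcripts alone were chosen after seeing the data. Human samples and other assays were not analysed here. A few genes that the naming rule would give are not reported here, and the plots by gene leave them out.

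Members, gene lists and tests were chosen with earlier results of these data known. Genes were named by a fixed rule: those past the threshold with the largest changes, up to 10 per direction, the 5 highest and lowest levels and LR, paralog pairs, the stalk proteins, and outliers over 3 scaled median absolute deviations from the members' median. Replicate numbers come from the labels. Deviations from the group means correlated at 0.135 to 0.559 between same-numbered soma libraries of both genotypes in CAD. In N2A they correlated at 0.204 to 0.602. The numbers were therefore taken to pair the soma libraries, but the main tests did not use this pairing. A replicate block was run as an alternative. In neurites the correlations were 0.028 to 0.185 in CAD and 0.094 to 0.206 in N2A, and in the transgene experiment 0.035 to 0.195 in soma and -0.034 to 0.137 in neurites. No replicates agreed within sampling noise, with a chi-square per gene of 6.4 or more.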

Additional observations from a re-analysis of the deposited data

Results flagged for a closer look

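For 12 members the LR differed between wild-type N2A and wild-type CAD by an interaction test (edgeR quasi-likelihood, adjusted over all genes at an FDR of 0.01), the difference being given as N2A minus CAD on the log2 scale. It was lower in N2A for Rps18 at -2.01, Rps21 at -0.86, Rps29 at -0.67, Rpl37a at -0.64, Rps15 at -0.59, Rpl36 at -0.57, Rpl37 at -0.57 and Rps28 at -0.54. It was higher for Rpl5 at 0.64, Rpl27 at 0.66, Rps19bp1 at 0.79 and Rpl7l1 at 0.80. With near-identical copies summed, Rps18 was at -0.32 (adjusted p = 0.051), Rpl5 at 0.23 (0.19) and Rpl27 at 0.22 (0.22), while the other 9 moved by under 0.02. Groups of 3 libraries are too small for a test of single outlying libraries.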

How the results depend on the processing

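Values are numbers of members called. For CAD soma (3) it was 22 at an FDR of 0.05, 24 with DESeq2, 10 with upper-quartile scaling, 1 with no filter, 10 with a minimum of 10 counts, 7 with the replicate block, 6 with copies summed and 0 to 3 leaving out replicate numbers. For CAD neurites (4) it was 2 with no filter and 0 to 4 leaving out numbers. For N2A soma (37) it was 67 at 0.05, 66 with DESeq2, 24 with upper quartile and 0 to 27 leaving out numbers. For N2A neurites (1, lower) it was 3 at 0.05 and 3 with a minimum of 10, both now mostly higher, 2 with DESeq2, 3 with no filter, 2 with the replicate block, and 0 with upper quartile, length scaling, copies summed or any number left out. The block changed no other call count by over 1.5 times. For the change of LR (0) it was 1 in CAD with DESeq2, and in N2A 13 at 0.05, 34 with DESeq2 and 2 with no filter. With no filter it was 1 in each Q331K test. Between lines, soma (39) gave 42 with upper quartile, mostly higher, and 24 to 36 leaving out numbers. LR (12) gave 24 at 0.05, 28 with DESeq2, 35 with upper quartile, 30 with a minimum of 10 and 1 to 10 leaving out numbers. The change of LR between lines (0) gave 1 with DESeq2. Median LR was -0.17 on TPM and 1.41 less the all-gene median in CAD, -0.23 on TPM, 1.09 with upper quartile and 1.15 with a minimum of 10 in N2A, and 0.77 on TPM with the WT transgene. The median LR change on TPM was 0.22 in CAD and -0.037 in N2A, where all genes had 0.35 in both, which puts members minus all genes at -0.13 and -0.38. Large minus small subunit LR was -0.0255 to 0.0086 in CAD leaving out numbers, and in N2A (0.038) -0.0011 with length scaling, 0.061 with copies summed, 0.0091 on TPM and -0.0016 to 0.042 leaving out numbers. With copies summed, Rpl12 in CAD neurites was -0.12 and Rpl5 between lines in soma -0.094. The causes were not tested. Of the summary values 239 stayed as they were, 54 moved and 3 reversed. The transgene libraries, at 9783050 counts or more, limit the precision there.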
